A study of Sus scrofa with 18 samples.

Results

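The step from 1 h to 4 h of all-trans retinoic acid (ATRA) was described in LLC-PK1 cells, an established epithelial line from pig kidney. It was read from the 3 arrays of cells treated for 4 h against the 3 arrays of cells treated for 1 h, which are 6 of the 18 arrays of the series. Every one of the 27558 probe sets was used, and these named 12361 genes. The other 12 arrays covered 0, 0.5, 8 and 12 h, with 3 biological replicates at each time. Per the labels, the line came from the kidney of a male Hampshire pig, the cells were grown beyond confluence, and ATRA was then added for the stated time. All groups are the same line with no transgene or other agent named, and no source used here gives the dose of ATRA. The 1 h and 4 h cells therefore differed only in the stated time with ATRA, and no arrays of cells kept for 4 h without ATRA were used here, so time in culture and time with ATRA cannot be told apart. The labels call the replicates biological and do not say whether they were grown on separate days.

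ATRA is the active form of vitamin A. It enters the nucleus and binds retinoic acid receptors, which sit on DNA as partners of retinoid X receptors and switch from repressing to activating their target genes once the ligand is bound. Among the best known targets are the enzymes that clear or store retinoids, so the signal limits itself. A separate, very fast wave of transcription follows many stimuli in cultured cells: immediate early genes such as FOS and EGR1 are switched on within minutes by signaling proteins already in the cell, and their short-lived messages disappear again as feedback proteins and mRNA decay factors accumulate. Genes that need newly made proteins come later. The interval from 1 h to 4 h spans the passage between these waves.

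Values are the deposited log2 signals, on which a difference of 1 is a change of 2-fold. Levels are compared here only between arrays for the same probe set, never between genes. The exception is that some levels are set beside the median of all probe sets as a rough guide to detection. Changes are the mean at 4 h minus the mean at 1 h (n = 3 arrays each) with the standard error (SE) of a limma model of all 18 arrays, and a change was called at a Benjamini-Hochberg adjusted p under 0.05 over all probe sets. In bulk RNA, fewer cells of a kind and less RNA per cell cannot be told apart. Array medians lay between 5.59 and 5.67 in all 18 arrays.

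The replicate 1 arrays stood apart from the others. Across probe sets, the 1 h array of replicate 1 correlated at 0.988 with the 4 h array of the same number, but at 0.978 and 0.977 with the 4 h arrays of replicates 2 and 3. At 4 h, replicates 2 and 3 correlated at 0.992 with each other and at 0.984 each with replicate 1. From 1 h to 4 h, 665 probe sets moved by at least 1 either way in replicate 1, 792 in replicate 2 and 1133 in replicate 3. By this count replicates 1 and 2 lay closer to each other than to replicate 3. Because of the correlations, counts are given with and without replicate 1. The same numbers were treated as pairs where stated.

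The label of a kidney epithelial line was set against marker genes. The keratin KRT8 read 11.69 to 11.93 at 1 h and 12.00 to 12.05 at 4 h, and the epithelial adhesion protein EPCAM read 9.86 to 10.37 and 10.03 to 11.02. Of 13 measured epithelial markers, 3 had means under the lowest array median. Limma called 0 of the 13, with 3 higher and 1 lower at an unadjusted p under 0.05. The fit with replicate number as a block called 2 higher, EPCAM (0.45, adjusted p = 0.0059) and KRT19 (0.30, adjusted p = 0.0494), and 1 lower, the splicing factor ESRP1 (-0.44, adjusted p = 0.015), with changes of -0.14, -0.57 and -0.62 in replicates 1 to 3. Of 14 measured immune cell markers, 12 had means under the lowest array median, among them the leukocyte marker PTPRC (2.64 to 2.93 at 1 h, 2.87 to 2.90 at 4 h). Limma called 0 of the 14, and 0 had an unadjusted p under 0.05. Of 8 endothelial markers 6 had means under that median, with PECAM1 at 4.17 to 4.25 at 4 h; ESAM, a junction adhesion molecule, fell by 0.87 (adjusted p = 0.00211) and FLT1, a VEGF receptor, rose by 0.57 (adjusted p = 0.0239, called in 3 of the 6 fits that left out 1 array). Fibroblast markers were mixed: 9 of 15 had means under the lowest array median, while COL1A2 and FN1 were well above it (11.61 to 12.03 and 11.46 to 11.88 at 4 h). The median fibroblast marker read 4.29 to 4.71 on the 1 h arrays and 4.08 to 4.78 on the 4 h arrays, so these ranges overlapped. COL1A1 rose and TWIST1, a transcription factor of mesenchyme, fell (-0.41, adjusted p = 0.015), and each call was lost on leaving out single arrays, in 4 and 2 of 6 fits. The part of these markers in the results was not tested.

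Between 1 h and 4 h the arrays changed broadly and in both directions. Of 27558 probe sets, 2925 (10.6%) were called, 1564 higher at 4 h (5.68%) and 1361 lower (4.94%). Counted once per gene, 914 of 12361 genes were higher (7.39%) and 769 were lower (6.22%), and the median change over all genes was 0.01. Most changes were modest: the median called rise was 1.5-fold and the median called fall 1.53-fold, and 110 genes rose and 108 fell by at least 2-fold. The 3 values at 4 h lay wholly above or below those at 1 h in 22.6% of all probe sets, and in 1548 of the called rises and 1324 of the called falls; the other 16 and 37 calls had overlapping values. Without replicate 1 at any time, 4213 probe sets were called, 2061 higher and 2152 lower. With replicate number as a block, 2213 were higher and 2155 lower. Leaving out single arrays moved the total between 1607 (without the 4 h array of replicate 3) and 3816 (without the 4 h array of replicate 1), with 879 rises and 728 falls in the former. The falls also dropped to 856 without the 1 h array of replicate 3 and to 836 without the 4 h array of replicate 2. A fit of the 6 arrays alone, with far fewer degrees of freedom, called 585.

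**Figure D1:**
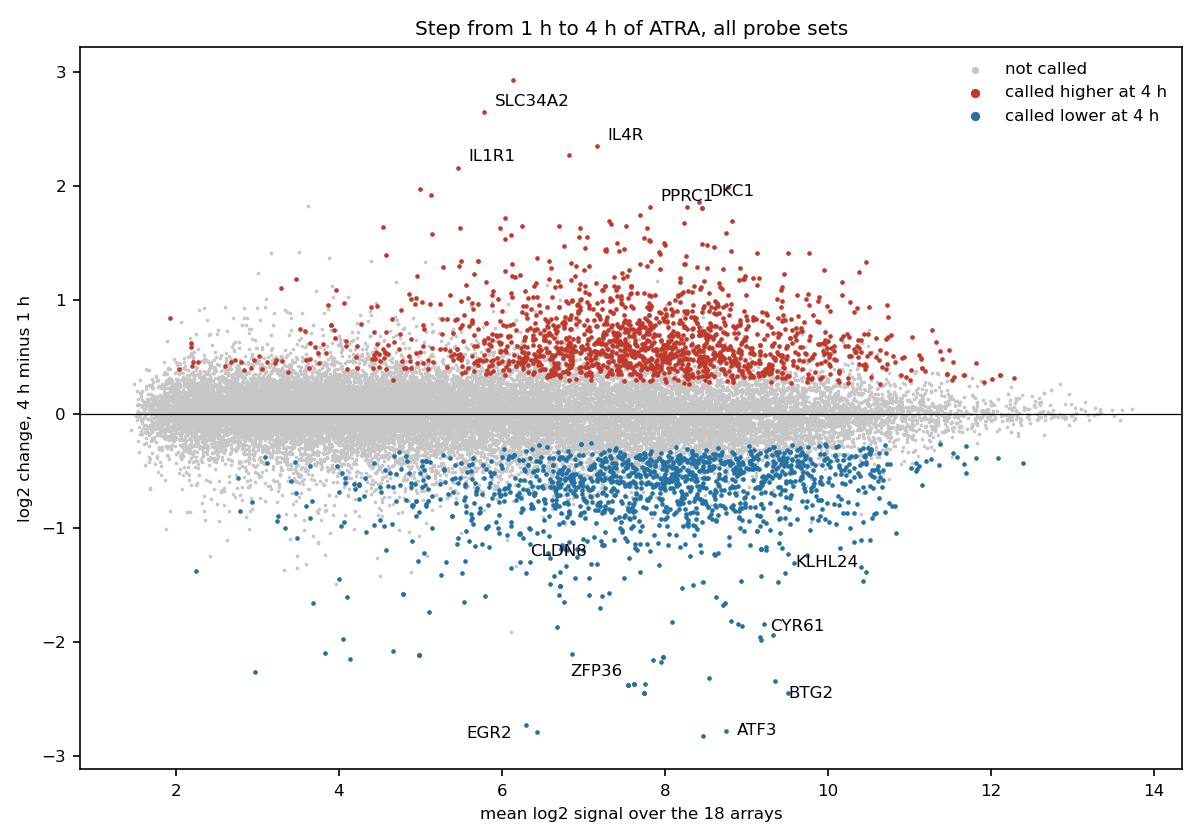
Log2 change from 1 h to 4 h (y axis) against the mean log2 signal over the 18 arrays (x axis) for 27558 probe sets, with 1 point each: red, 1564 called higher; blue, 1361 called lower; grey, not called. Calls of both directions spread over the range of signal, and the points named EGR2 and ATF3 near the bottom and SLC34A2 near the top mark changes of -2.79, -2.78 and 2.64.

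Immediate early transcription factors made up much of the lower edge. Of 15 measured factors 11 were lower at 4 h (73.3%, against 6.22% of all genes) and 0 were higher, with a median change of -1.19. EGR1, a zinc finger factor induced by growth signals, read 10.08, 10.59 and 10.96 at 1 h in replicates 1 to 3 and 8.09, 8.35 and 8.24 at 4 h. The groups did not overlap, and the change of -2.32 ± 0.19 was a 4.98-fold fall (adjusted p = 6.35e-06). Its relative EGR2 went from 7.58, 8.73 and 9.88 to 5.68, 5.99 and 6.15, a fall of 6.92-fold (adjusted p = 0.000317). The 1 h values of EGR2 ranged over more than 2 units and its 4 h values over less than 0.5, so most of its spread was at 1 h.

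ATF3, a stress-induced repressor, dropped from 10.17, 11.23 and 11.72 to 8.14, 8.30 and 8.33 (-2.78 ± 0.27, adjusted p = 2.24e-05). FOS, the AP-1 subunit, dropped from 7.33, 8.12 and 9.01 to 6.21, 6.28 and 6.36 (-1.87 ± 0.33, adjusted p = 0.00175). NR4A3, an orphan nuclear receptor, dropped from 5.75, 6.56 and 7.39 to 4.16, 4.76 and 4.53 (-2.08 ± 0.33, adjusted p = 0.000731). In all 3 genes every 4 h value lay under every 1 h value, and replicate 1 had the lowest value at 1 h. MYC, a transcription factor that drives growth, was an exception to the calls: it read 10.44, 11.28 and 11.49 at 1 h and 9.33, 10.57 and 10.46 at 4 h. These values overlap, and the change of -0.95 ± 0.33 was not called (adjusted p = 0.084), although it passed with replicate number as a block (adjusted p = 0.00726) and without replicate 1 (adjusted p = 0.00579).

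Transcripts for proteins that degrade early messages or halt growth fell in part. Of 13 mRNA decay and growth arrest factors 6 were lower (46.2%, against 6.22% of all genes) and 0 higher (median -0.45). ZFP36, which binds AU-rich elements and sends messages to decay, went from 9.20, 9.50 and 10.26 at 1 h to 7.28, 7.21 and 7.36 at 4 h (-2.37 ± 0.19, adjusted p = 6.35e-06). BTG2, an antiproliferative partner of the deadenylase complex, read between 10.31 and 11.48 on the 1 h arrays and 8.65, 8.48 and 8.62 at 4 h (-2.35 ± 0.20, adjusted p = 6.98e-06). Both groups of 4 h values were tight and wholly below 1 h. TOB1, of the same family as BTG2, fell by 0.82 (adjusted p = 0.000447). GADD45G, a growth arrest gene, fell by 1.00 (adjusted p = 0.037), but kept its call in only 2 of the 6 fits that left out 1 array (the highest adjusted p was 0.172).

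Genes of ERK feedback were called in both directions. Of 14 genes of the list, 2 were lower and 2 higher (14.3% each, against 6.22% and 7.39% of all genes). The median change was 0.10. The lower ones were the phosphatases DUSP5 and DUSP1. DUSP5, which holds and dephosphorylates ERK in the nucleus, read 11.21, 11.79 and 11.94 at 1 h and 9.16, 10.03 and 9.93 at 4 h (-1.94 ± 0.24, adjusted p = 0.000115), and DUSP1 fell by 1.82 (adjusted p = 0.000657). The higher ones were SPRED1 and SPRED2, inhibitors of RAS signaling to ERK. SPRED1 read 7.40, 7.16 and 7.29 at 1 h and 8.21, 8.44 and 8.82 at 4 h (1.21 ± 0.15, adjusted p = 0.000137), and SPRED2 rose by 0.91 (adjusted p = 0.00317). None of the 4 overlapped between the times. Without replicate 1, 4 genes were higher. The list's median was -0.30 in replicate 1, against 0.17 and 0.20 in replicates 2 and 3.

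Among 16 growth factor ligands 4 were lower and 1 was higher, against 6.22% of all genes lower and 7.39% higher. The share higher, 6.25%, was near that of all genes, and only the share lower was above it. HBEGF, a membrane-shed ligand of the EGF receptor, read 10.56, 10.83 and 11.18 at 1 h and 8.92, 8.99 and 9.13 at 4 h (-1.84 ± 0.16, adjusted p = 8.91e-06). Its relatives EREG and BTC fell by 1.15 (adjusted p = 0.000325) and 0.64 (adjusted p = 0.00439). EDN1, the vasoconstrictor endothelin-1, fell by 1.43 (adjusted p = 0.0122), but not past the threshold without the 1 h array of replicate 2 (adjusted p = 0.0593) or of replicate 3 (adjusted p = 0.0678). BMP4, a morphogen of kidney development, rose by 0.53 (adjusted p = 0.0219), but was not called without the 1 h array of replicate 2 (adjusted p = 0.107) or the 4 h array of replicate 2 (adjusted p = 0.112).

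Of 20 NF-kappaB targets and cytokines 8 were lower and 2 higher (median -0.45), against 6.22% of all genes lower and 7.39% higher. CXCL2, a neutrophil chemokine, read 10.00, 10.15 and 10.29 at 1 h and 8.97, 9.13 and 9.25 at 4 h (-1.03 ± 0.12, adjusted p = 6.69e-05), and its 3 other probe sets changed by -0.99, -1.27 and -1.03. TNFAIP3, the ubiquitin-editing inhibitor of NF-kappaB, fell by 1.44 (adjusted p = 0.00158) and NFKBIZ, an atypical IkB, by 0.88 (adjusted p = 0.00264). CCL20, a chemokine, fell by 1.59 (adjusted p = 0.0123), with values of 0.0583 and 0.0564 for the adjusted p without the 1 h array of replicate 2 or 3. IL6 read 7.92, 8.75 and 9.46 at 1 h and 6.41, 7.67 and 8.10 at 4 h. These overlap, and its change of -1.32 ± 0.38 (adjusted p = 0.0379) kept its call only in the fits without the 1 h array of replicate 1 and without the 4 h array of replicate 3. CXCL8, the human IL-8 homolog, changed by -1.48 ± 0.48 and was not called (adjusted p = 0.0614), though it was with replicate number as a block (adjusted p = 0.00721) and without replicate 1 (adjusted p = 0.0175). The 2 genes that rose, named after their values were seen, were NFKB1, a subunit of NF-kappaB (0.60, adjusted p = 0.0118), and the adhesion receptor ICAM1 (0.48, adjusted p = 0.00371), and NFKB1 lost its call in 2 of the fits that left out 1 array. The count of lower genes in this list was 4 without the 1 h array of replicate 2 or of replicate 3, and 5 without the 4 h array of replicate 1 or of replicate 2.

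Targets of YAP and SRF, the transcription systems that read cell tension and the actin cytoskeleton, fell in 6 of 14 genes and rose in 2. These were 42.9% and 14.3%, against 6.22% and 7.39% of all genes. The list's median change was -0.02, with 7 changes above 0 and 7 below. The matricellular proteins CYR61 and CTGF dropped, CYR61 from 10.79, 11.58 and 11.70 to 8.82, 9.66 and 9.70 (-1.96 ± 0.25, adjusted p = 0.000189) and CTGF from 7.59, 9.15 and 9.88 to 6.26, 6.94 and 7.09 (-2.11 ± 0.45, adjusted p = 0.00642). ANKRD1, a muscle-type ankyrin repeat protein used as a YAP readout, fell by 2.18 (adjusted p = 0.001). The members that rose code for structural and adhesion proteins: VCL, the focal adhesion protein vinculin, read 10.41, 10.46 and 10.24 at 1 h and 10.69, 11.23 and 11.30 at 4 h (0.70 ± 0.14, adjusted p = 0.00373), and FHL2, a LIM-domain adaptor, rose by 0.73 (adjusted p = 0.00755). Neither overlapped between the times.

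How far the falls traced the first wave was read from arrays outside the step. The comparison of 0.5 h with 0 h, which shares no array with it, called 54 probe sets higher (0.196%). Of these 45 were lower at 4 h than at 1 h and 2 were higher, with a median change of -1.83, and 52 of the 54 changes were below 0. So 83.3% of the probe sets raised in the first 0.5 h fell in this step, against 4.94% of all probe sets. The 45 were only 3.31% of the 1361 falls. Some of these probe sets share a profile, and with shared profiles counted once 33 early rises fell instead of 45. In that fit the step from 0 h to 0.5 h called 48 probe sets either way instead of 64. In genes, 19 of 25 fell (76.0%, against 6.22% of all genes). Of the other 6, the decay factor ZFP36L1 (-0.35), the kinase PIM1 (-0.31) and the transcription factors ELF3 (-0.21) and BHLHE40 (-0.18), named after their values were seen, were not called. HOXD1 (0.56, adjusted p = 0.0209) and DDIT4 (0.73, adjusted p = 0.00315) were higher. HOXD1, a homeobox factor, read 6.42, 6.21 and 6.03 at 1 h and 6.72, 6.76 and 6.87 at 4 h, with means of 5.71 at 0 h, 6.49 at 0.5 h and 6.91 at 12 h, and lost its call in 4 of the 6 fits that left out 1 array (highest adjusted p = 0.101). DDIT4, an inhibitor of mTORC1, read 9.24, 8.94 and 8.75 and then 9.77, 9.71 and 9.64.

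Means at the other times place the fall of the early genes. EGR1 started from a mean of 7.51 and reached 10.22 after 0.5 h and 10.54 after 1 h, then fell to 8.23 by 4 h and had a mean of 7.48 by 8 h. ZFP36 had means of 6.76, 9.38, 9.66, 7.28 and 6.84 at the same times. CYR61, with 7.78, 10.32, 11.36, 9.39 and 8.16, and DUSP5, with 8.26, 10.26, 11.65, 9.71 and 8.16, had 4 h means 1.62 and 1.44 above their 0 h means, against 0.71 and 0.53 for EGR1 and ZFP36, and differences between these genes were not tested.

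**Figure D2:**
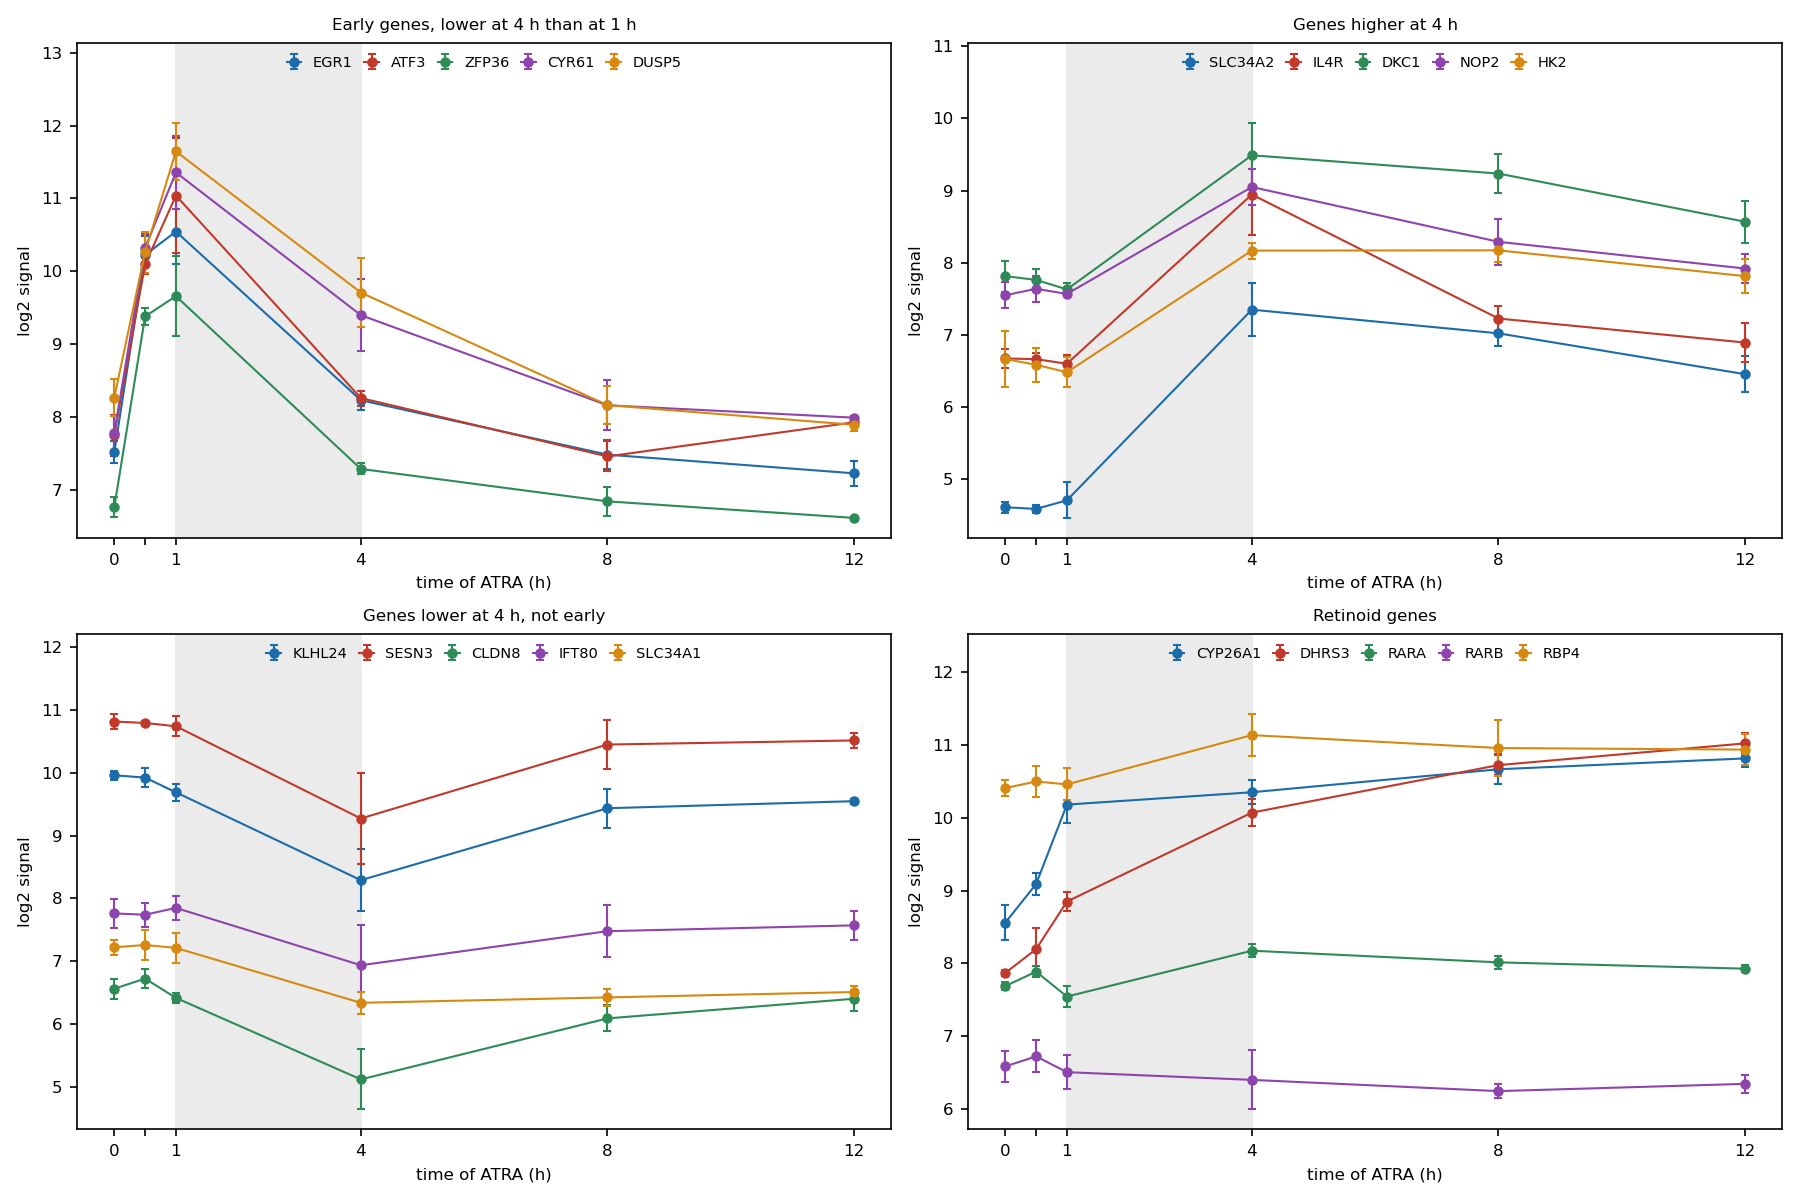
Mean log2 signal (y axis) of 20 genes against hours of ATRA (x axis), with bars of 1 SD over 3 arrays and the step from 1 h to 4 h shaded. Early genes peak at 1 h and fall through the step, SLC34A2 to HK2 rise in it, KLHL24, SESN3 and CLDN8 dip at 4 h, and DHRS3 climbs through the step and beyond while CYP26A1 shows most of its rise by 1 h.

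Of 16 genes of retinoid handling 2 were higher (12.5%, against 7.39% of all genes) and 1 was lower (6.25%, against 6.22%), shares near those of all genes, and the median change was 0.15. CYP26A1, which oxidizes and so clears retinoic acid, read 9.94, 10.17 and 10.44 at 1 h and 10.33, 10.20 and 10.52 at 4 h. The values overlap and the change of 0.17 ± 0.16 was not called (adjusted p = 0.628). Its mean was 8.56 at 0 h and 10.18 at 1 h, so most of its rise was measured before this step. DHRS3, which reduces retinaldehyde to retinol, was still climbing, from 8.97, 8.86 and 8.71 at 1 h to 10.29, 9.96 and 9.97 at 4 h (1.22 ± 0.14, 2.33-fold, adjusted p = 8.29e-05). Its mean was 7.87 at 0 h and 11.02 at 12 h. RBP4, the plasma retinol carrier, rose by 0.68 (adjusted p = 0.035) and RDH11, a retinaldehyde reductase, fell by 0.59 (adjusted p = 0.0324). Both calls were fragile, with RBP4 kept only without the 4 h array of replicate 1 and RDH11 in 2 of 6 such fits (highest adjusted p 0.166 and 0.168). STRA6, the retinol importer, and CRABP2, a carrier of retinoic acid to its receptor, changed by -0.08 and -0.02 (adjusted p = 0.749 and 0.982).

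Of 11 receptors and coregulators 1 rose and 1 fell (9.09% each, against 7.39% and 6.22% of all genes), shares near those of all genes. RARA, the widely expressed retinoic acid receptor, read 7.41, 7.53 and 7.69 at 1 h and 8.07, 8.25 and 8.19 at 4 h, with no overlap (0.63 ± 0.09, adjusted p = 0.000355). Its means were 7.69 at 0 h and 7.88 at 0.5 h, so the 1 h level was the lowest of the 6 times. RARB, often used as a reporter of receptor activity in other cells, read 6.25, 6.56 and 6.70 and then 6.26, 6.85 and 6.08 (-0.11 ± 0.18, adjusted p = 0.838). NCOA2, a coactivator of nuclear receptors, fell by 0.69 (adjusted p = 0.00275). Single arrays moved these counts to 2 higher (without the 1 h array of replicate 2) and 2 lower (without the 1 h or the 4 h array of replicate 1).

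The largest rises included genes with nearly level means from 0 h to 1 h. SLC34A2, the sodium-dependent phosphate transporter of lung and gut epithelium, read 4.99, 4.52 and 4.61 at 1 h and 7.22, 7.06 and 7.76 at 4 h. It rose 6.25-fold (2.64 ± 0.17, adjusted p = 3.05e-06), from a 0 h mean of 4.61, and stayed at 7.02 at 8 h. Its 1 h values and its 0 h mean lay under every array median, so the fold was measured from a dim start. The cytokine receptors IL4R and IL1R1 followed. IL4R went from 6.59, 6.72 and 6.48 to 8.30, 9.20 and 9.33 (2.35 ± 0.21, adjusted p = 1.12e-05) and IL1R1 from 4.71, 5.14 and 4.97 to 5.91, 7.50 and 7.88 (2.16 ± 0.34, adjusted p = 0.00067). In both the 4 h array of replicate 1 was the lowest of its group, and the 1 h values of IL1R1 lay under every array median. The means fell from 8.94 and 7.10 at 4 h to 7.23 and 5.73 at 8 h. That later fall is given without a test because the genes were named for their 4 h values.

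UBASH3B, a phosphatase of receptor signaling, rose by 1.97 (adjusted p = 5.09e-05). GABRP, a GABA receptor subunit found in epithelia, went from 7.79, 7.54 and 7.49 to 8.69, 9.54 and 10.01 (1.81 ± 0.34, adjusted p = 0.00287), and its other probe set also changed by 1.81. EMP1, an epithelial membrane protein, rose by 1.69 (adjusted p = 0.00139), HK2, the inducible hexokinase, by 1.69 (adjusted p = 5.93e-05) and MICAL2, an actin-oxidizing enzyme, by 1.59 (adjusted p = 3.59e-05). CDCA7, a chromatin protein linked to MYC and E2F, rose by 1.58 (adjusted p = 0.00049). HK2 read 6.70, 6.28 and 6.46 at 1 h and 8.05, 8.18 and 8.27 at 4 h, a narrow group wholly above the first. The 15 largest rises and 15 largest falls kept their calls in each of the 6 fits that left out 1 array. They were picked on these arrays for large changes without overlap, which favours keeping a call.

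Among the gene lists, which were chosen with earlier results of these data known, the broadest rise was in ribosome biogenesis. This is the assembly of ribosomal RNA and protein into subunits in the nucleolus. Of 40 measured factors 33 were higher at 4 h (82.5%, against 7.39% of all genes) and 0 were lower. All 40 changes were above 0 and their median was 0.92 against 0.01 for all genes. The list's median level was 7.92, 8.06 and 8.03 on the 1 h arrays and 8.77, 9.00 and 9.24 on the 4 h arrays. DKC1, the pseudouridine synthase dyskerin, read 7.60, 7.56 and 7.73 at 1 h and 9.04, 9.49 and 9.94 at 4 h (1.86 ± 0.20, 3.63-fold, adjusted p = 6.18e-05). NOP2, an rRNA methyltransferase, read 7.54, 7.57 and 7.58 and then 8.78, 9.08 and 9.28 (1.48 ± 0.17, adjusted p = 6.69e-05). In each the 1 h values were nearly equal and the 4 h values rose well clear of them, lowest in replicate 1.

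PPRC1, a coactivator related to PGC-1, rose by 1.81 (adjusted p = 1.71e-05), GAR1, a partner of dyskerin, by 1.30 (adjusted p = 0.000325) and WDR3, of the small-subunit processome, by 1.27 (adjusted p = 0.000199). By replicate number the list's median change was 0.63, 0.99 and 1.07. Counts stayed between 27 and 36 of 40 on leaving out single arrays, and were 35 with replicate number as a block and 36 without replicate 1. Nucleolar RNA helicases moved likewise, 6 of 9 higher (66.7%, against 7.39% of all genes) and 0 lower. They were led by DDX21 (1.16 ± 0.19, adjusted p = 0.00104) and DDX18 (1.12 ± 0.17, adjusted p = 0.000653).

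Few of the ribosome's own proteins were called. Of 41 genes with symbols of cytosolic ribosomal proteins 1 was higher (2.44%, against 7.39% of all genes) and 0 lower. The median change was 0.03. The 1 was RPL7L1 (0.40, adjusted p = 0.0105), whose product is an assembly factor and not a mature subunit protein, and it was not called without the 4 h array of replicate 3 (adjusted p = 0.0612). The list's median level was 10.50, 10.91 and 10.71 at 1 h and 10.54, 10.95 and 10.93 at 4 h, ranges that overlap. The point farthest from 0, named after its value was seen, was RPS6 (1.16 ± 0.40), which was not called (adjusted p = 0.0813) and whose 1 h mean of 3.98 was under the array medians. Of 53 mitochondrial ribosomal proteins 9 were higher (17.0%, against 7.39% of all genes) and 0 lower, with a median of 0.13. MRPS6 rose by 0.82 (adjusted p = 0.00769) and MRPL20 by 0.69 (adjusted p = 0.028), and the count fell to 2 without the 4 h array of replicate 2 or of replicate 3, and to 4 without the 1 h array of replicate 1 or of replicate 3.

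Other parts of the machinery for translation and growth were raised. Of 14 cytosolic tRNA synthetases, which charge tRNAs with amino acids, 11 were higher (78.6%, against 7.39% of all genes) and 0 lower (median 0.55). Among them were CARS (0.82, adjusted p = 0.00508), WARS (0.77, adjusted p = 0.00377) and GARS (0.66, adjusted p = 0.0016). GARS read 10.47, 10.22 and 10.14 at 1 h and 10.85, 10.88 and 11.09 at 4 h, without overlap. Leaving out single arrays left 8 to 11 of these calls, but the fit of the 6 arrays alone left 1. Of 18 RNA polymerase III subunits and tRNA-modifying enzymes 8 were higher (44.4%, against 7.39% of all genes) and 0 lower. In front were POLR3E (1.55 ± 0.16, adjusted p = 4.53e-05) and the pseudouridine synthase PUS1 (1.44 ± 0.14, adjusted p = 2.95e-05). POLR3E read 6.56, 6.56 and 6.64 at 1 h and 7.78, 8.25 and 8.38 at 4 h, and 5 of these genes were called without the 1 h array of replicate 1 or the 4 h array of replicate 3.

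Translation initiation factors rose in 8 of 24 genes (33.3%, against 7.39% of all genes) and fell in 0 (median 0.21). EIF4E, the cap-binding protein, read 9.34, 9.47 and 9.56 and then 9.91, 10.13 and 10.27 (0.65 ± 0.10, adjusted p = 0.000489), and EIF2S2, the beta subunit of eIF2, rose by 0.67 on each of its 2 probe sets (adjusted p = 0.00155 for the brighter). This count fell to 2 without the 4 h array of replicate 3 and to 4 without the 1 h array of replicate 1, the 1 h array of replicate 2 or the 4 h array of replicate 2. In nucleotide and polyamine synthesis 9 of 16 were higher (56.2%, against 7.39% of all genes) and 0 lower (median 0.54). CTPS1, which makes CTP, went from 7.32, 7.28 and 7.34 to 8.38, 8.92 and 9.26 (1.54 ± 0.20, adjusted p = 0.000182), and ADSS, of AMP synthesis, from 9.35, 9.32 and 9.39 to 10.48, 10.78 and 11.05 (1.41 ± 0.12, adjusted p = 6.35e-06). UMPS, of pyrimidine synthesis, rose by 0.92 (adjusted p = 0.000783) and AMD1, of polyamine synthesis, by 0.90 (adjusted p = 0.00325).

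Nuclear import and export genes rose in 12 of 24 and fell in 0 (median 0.39). They included NUP62, a central channel nucleoporin (0.83 ± 0.13, adjusted p = 0.000802), NUP188 (0.69, adjusted p = 0.00111), the importin IPO4 (0.64, adjusted p = 0.00522) and the exportin XPO6 (0.58, adjusted p = 0.00386). The count was 5 without the 4 h array of replicate 3 and 7 without the 1 h array of replicate 2. Of 33 mitochondrial carriers 6 were higher (18.2%, against 7.39% of all genes) and 3 lower (9.09%, against 6.22%). SLC25A28, an iron importer, was up by 1.02 (adjusted p = 0.000945). SLC25A27, an uncoupling-type carrier, was lower (-0.72, adjusted p = 0.00522), as were SLC25A25 (-0.67) and SLC25A12 (-0.65). The count of higher carriers fell to 3 without the 1 h or the 4 h array of replicate 3.

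**Figure D3:**
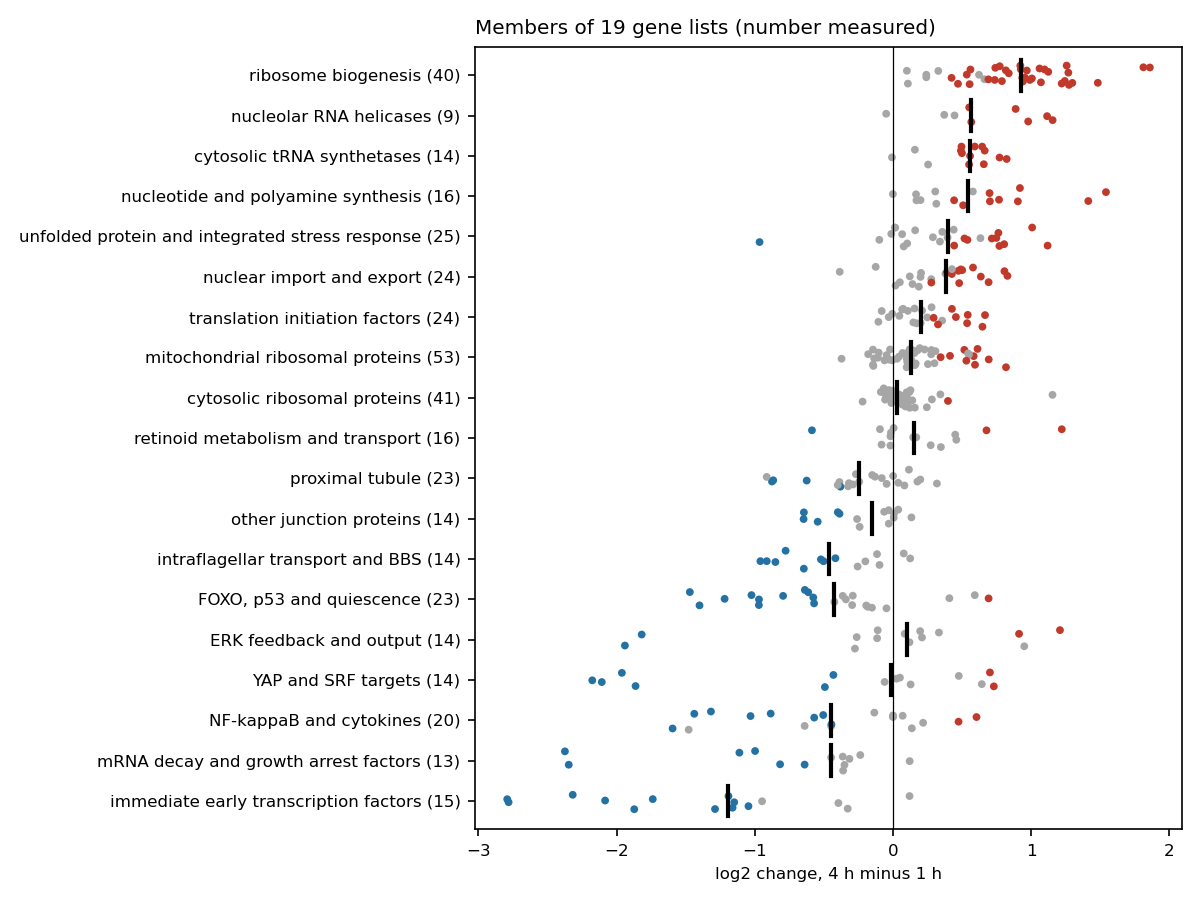
Log2 change from 1 h to 4 h (x axis) of each measured member of 19 gene lists (y axis, number measured in brackets), with 1 point per gene: red, called higher; blue, called lower; grey, not called; black bar, list median. All 40 ribosome biogenesis genes lie right of 0, the median of the 41 cytosolic ribosomal proteins is at 0.03 and 14 of 15 immediate early factors lie left of it.

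Genes of the unfolded protein and integrated stress responses, which slow general translation while raising chaperones and amino acid supply, rose in 10 of 25 and fell in 1 (median 0.40). These were 40.0% and 4.0%, against 7.39% and 6.22% of all genes. ASNS, asparagine synthetase, read 7.98, 7.88 and 7.77 at 1 h and 8.63, 9.04 and 9.32 at 4 h (1.12 ± 0.18, adjusted p = 0.000877). CHAC1, which degrades glutathione, read 4.80, 4.81 and 4.89 and then 5.21, 6.12 and 6.19 (1.01 ± 0.21, adjusted p = 0.00551), with replicate 1 well under the other 4 h values, and the mean was 4.75 at 8 h. Its 1 h values lay under every array median. TRIB3, a pseudokinase, rose by 0.81 (adjusted p = 0.0114), though not past the threshold without the 4 h array of replicate 3 (adjusted p = 0.073). CRELD2, an endoplasmic reticulum chaperone, rose by 0.77 (adjusted p = 0.00373). The gene that fell was VLDLR, a lipoprotein receptor (-0.96 ± 0.13, adjusted p = 0.000275), with -0.93 on its other probe set.

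Heat shock genes gave 6 rises (33.3%, against 7.39% of all genes) and 1 fall (5.56%, against 6.22%) among 18. HSPH1, a large HSP70 relative, read 8.83, 8.61 and 9.11 at 1 h and 9.48, 9.81 and 9.95 at 4 h (0.90 ± 0.16, adjusted p = 0.00168), while DNAJB4, an HSP40 co-chaperone, read 9.20, 9.65 and 9.99 and then 8.27, 7.63 and 7.93 (-1.67 ± 0.18, adjusted p = 6.24e-05). DNAJB4 had means of 8.82 at 0 h and 8.62 at 8 h, so it lay above both at 1 h and below both at 4 h. The number of rises fell to 1 without the 1 h array of replicate 2 or the 4 h array of replicate 3, to 3 without the 1 h array of replicate 1 or the 4 h array of replicate 2, and was 4 without replicate 1, and the falls numbered 3 without the 4 h array of replicate 1. The CCT chaperonin had 2 of 6 subunits higher (33.3%, against 7.39% of all genes), TCP1 (0.45, adjusted p = 0.0158) and CCT6A (0.54, adjusted p = 0.0365). This count was 0 without the 1 h array of replicate 2 or the 4 h array of replicate 3. It was 1 without the 1 h array of replicate 1 or the 4 h array of replicate 2. Of 28 proteasome genes 1 was higher (3.57%, against 7.39% of all genes), PSMD10 (0.52, adjusted p = 0.0382). The count was 5 with replicate number as a block. It was 0 on leaving out the 1 h array of replicate 2 or 3, or the 4 h array of replicate 1 or 3.

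In glycolysis and hypoxia genes HK2 and DDIT4 rose while ADM and PDK3 fell among 22 measured. These were 9.09% each way, near the 7.39% higher and 6.22% lower of all genes. ADM, the vasodilator adrenomedullin, dropped from 7.01, 7.70 and 8.44 to 5.87, 6.07 and 6.27 (-1.65 ± 0.26, adjusted p = 0.000731), and PDK3 by 0.60 (adjusted p = 0.0274), though PDK3 kept its call only without the 4 h array of replicate 1 (highest adjusted p = 0.159). In cholesterol synthesis limma called 0 of 11 genes, with 2 lower and 0 higher at an unadjusted p under 0.05, a median change of -0.40 and 10 of 11 changes below 0. With replicate number as a block 5 of them were lower, and 3 were without replicate 1. Leaving out the 4 h array of replicate 1 gave 3 lower as well, and the list's median change was -0.12, -0.69 and -0.24 in the 3 replicates.

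Of 199 solute carriers outside the mitochondrial family, 16 were higher (8.04%, against 7.39% of all genes) and 8 lower (4.02%, against 6.22%), with a median of 0.00, so the counts describe single carriers and not the family. After SLC34A2 the rises were in SLC16A1, the lactate and pyruvate carrier MCT1, from 7.03, 6.70 and 7.23 to 8.07, 8.81 and 9.30 (1.74 ± 0.23, adjusted p = 0.000213), in SLC7A2, a carrier of cationic amino acids (1.64 ± 0.23, adjusted p = 0.000322), in SLC1A4, of small neutral amino acids, from 7.61, 7.21 and 7.05 to 8.62, 9.01 and 9.13 (1.63 ± 0.14, adjusted p = 8.91e-06), and in SLC29A1, the equilibrative nucleoside carrier (1.12 ± 0.20, adjusted p = 0.0019). These groups did not overlap. With replicate number as a block the falls numbered 21, with 17 without replicate 1, and between 4 (without the 4 h array of replicate 3) and 15 (without that of replicate 1) on leaving out single arrays, with 5 without the 4 h array of replicate 2.

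Of 17 cell cycle genes of the G1/S transition and DNA replication 3 were higher (17.6%, against 7.39% of all genes) and 0 lower, and 6 were with replicate number as a block. MCM4, of the replicative helicase, read 8.32, 8.14 and 7.97 at 1 h and 8.88, 8.89 and 8.83 at 4 h (0.72 ± 0.16, adjusted p = 0.0089), and its mean was 9.45 at 8 h. CCNE2, the G1/S cyclin E2, read 5.66, 5.13 and 4.74 and then 7.24, 5.69 and 6.35 (1.25 ± 0.36, adjusted p = 0.0333), high in replicate 1, and kept its call only in the fits without the 1 h array of replicate 1 or the 4 h array of replicate 2. GINS2, of the same helicase assembly, rose by 0.45 (adjusted p = 0.0334), called in 2 of the 6 fits that left out 1 array (highest adjusted p = 0.165) and not without replicate 1 (adjusted p = 0.0577), and the number of rises was 1 without the 1 h or the 4 h array of replicate 3. Of 20 genes of G2/M and mitosis 1 was higher (5.0%, against 7.39% of all genes), the checkpoint protein BUB3 (0.52, adjusted p = 0.0063). In this list 16 had changes below 0. Its median change was -0.06, -0.42 and -0.10 in replicates 1 to 3. The replicates differed more than this in level, with list medians of 7.98, 7.15 and 6.61 at 1 h. CDK1, the mitotic kinase, named after its values were seen, changed by -0.73 and was not called (adjusted p = 0.431), but was with replicate number as a block (adjusted p = 0.00455) and without replicate 1 (adjusted p = 0.0331).

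Genes tied to quiescence, FOXO factors and p53 fell in 11 of 23 (47.8%, against 6.22% of all genes) and rose in 1 (4.35%, against 7.39%). The median change was -0.42. SESN3, a stress sensor that restrains mTORC1, read 10.91, 10.60 and 10.72 at 1 h and 10.11, 8.95 and 8.76 at 4 h (-1.47 ± 0.26, adjusted p = 0.00175). KLHL24, a substrate adaptor for a ubiquitin ligase, read 9.64, 9.58 and 9.85 and then 8.82, 7.84 and 8.21 (-1.40 ± 0.19, adjusted p = 0.000297). In both the 4 h array of replicate 1 was the highest of its group. SESN3 had a mean of 10.45 at 8 h and KLHL24 of 9.44, both higher than at 4 h. These later means are given without a test because the step from 1 h to 4 h uses the same 4 h arrays. CITED2, a transcriptional coregulator, fell by 1.22 (adjusted p = 0.0152) and TP53INP2, an autophagy factor, by 1.02 (adjusted p = 0.00057). CITED2 was not called without the 1 h array of replicate 2 (adjusted p = 0.0609) or of replicate 3 (adjusted p = 0.0831). The list's count of falls was 6 without the 1 h array of replicate 2 or of replicate 3, and 7 without the 4 h array of replicate 2. CCNG2, an atypical cyclin of the same list, changed by -0.19 (adjusted p = 0.552). The gene that rose, named after its value was seen, was ARRDC4, an arrestin-like protein (0.69, adjusted p = 0.019), called in 2 of the 6 fits that left out 1 array.

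Among regulators, LEF1, the nuclear partner of beta-catenin, rose from 8.27, 8.26 and 8.42 to 9.23, 9.39 and 9.60 (1.09 ± 0.11, adjusted p = 2.24e-05). ID2, an inhibitor of bHLH factors, fell from 9.00, 9.17 and 9.71 to 8.35, 8.29 and 8.37 (-0.95 ± 0.14, adjusted p = 0.000431), and ZNRF3, which removes WNT receptors, fell by 0.50 (adjusted p = 0.00231). In the list of BMP, TGF-beta, Notch and WNT targets 2 of 17 rose (11.8%, against 7.39% of all genes) and 3 fell (17.6%, against 6.22%). The others called were ID1, another bHLH inhibitor (0.54, adjusted p = 0.0264), and BAMBI, a decoy receptor of TGF-beta (-0.60, adjusted p = 0.0339), kept in 3 and 2 of the fits that left out 1 array. Of 28 HOX genes 4 fell (14.3%, against 6.22% of all genes) and 1 rose (3.57%, against 7.39%). The 4 were all of the HOXA cluster, led by HOXA10 (8.95, 9.25 and 9.51 at 1 h, 8.55, 8.17 and 8.03 at 4 h, -0.99 ± 0.16, adjusted p = 0.000769), HOXA9 (-0.81, adjusted p = 0.00162) and HOXA5 (-0.59, adjusted p = 0.00419), with HOXA3 at -0.39 (adjusted p = 0.0451). HOXA3 kept its call only in the leave-one-out fit without the 4 h array of replicate 1, and lost it with arrays centred on their medians. The 1 was HOXD1.

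Zinc finger genes of the ZNF, ZSCAN and ZFP symbols, mostly DNA-binding repressors, were higher in 15 of 162 (9.26%, against 7.39% of all genes) and lower in 4 (2.47%, against 6.22%), of which ZFP36 is an RNA-binding protein by function. ZNF829 (0.99, adjusted p = 0.0017) and ZNF7 (0.94 ± 0.10, adjusted p = 6.43e-05) rose, and ZNF618 fell by 0.80 (adjusted p = 0.00746). The remaining falls, named after their values were seen, were ZNF318 (-0.61, adjusted p = 0.000792) and ZNF385D (-0.46, adjusted p = 0.0338). The rises numbered 8 without the 4 h array of replicate 3 and 10 without the 1 h array of replicate 2, and the falls 8 with replicate number as a block, 11 without replicate 1 and 2 to 9 on leaving out single arrays. Of 88 kelch, F-box and BTB adaptors 8 were lower (9.09%) and 4 higher (4.55%), near the 6.22% and 7.39% of all genes. FBXO16 read 6.68, 6.59 and 6.63 at 1 h and 5.78, 4.97 and 4.96 at 4 h (-1.40 ± 0.17, adjusted p = 0.00012), and KLHL14 fell by 1.48 (adjusted p = 0.000661), while KLHL29 rose by 1.03 (adjusted p = 0.000213). The other 3 that rose, named after their values were seen, were FBXO31 (0.42), KLHL26 (0.55) and KLHL22 (0.38), with adjusted p of 0.015, 0.0279 and 0.0389. The falls in this family numbered 13 with replicate number as a block and 13 without replicate 1, and 14 without the 4 h array of replicate 1. The rises numbered 1 without the 4 h array of replicate 3 and 2 without the 1 h array of replicate 1 or 2. Circadian regulators had 2 of 14 higher and 2 lower (14.3% each, against 7.39% and 6.22% of all genes). They were PER2 at 0.95 (adjusted p = 0.0212), CRY1 at 0.60 (adjusted p = 0.0197), DBP at -0.76 (adjusted p = 0.0402) and NFIL3 at -0.51 (adjusted p = 0.0197). Each of these calls was lost on leaving out at least 1 array (highest adjusted p 0.127, 0.118, 0.156 and 0.0906).

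Genes that mark the proximal tubule, the nephron segment that reabsorbs most of the filtrate, fell in 4 of 23 and rose in 0 (median -0.24). The falls were 17.4%, against 6.22% of all genes, and 7 of the 23 had means under the lowest array median. SLC34A1, the phosphate transporter of the proximal tubule, read 7.04, 7.11 and 7.49 at 1 h and 6.52, 6.31 and 6.18 at 4 h (-0.88 ± 0.14, adjusted p = 0.00095), the opposite direction to its relative SLC34A2. PCK1, of gluconeogenesis, read 6.82, 6.99 and 7.13 and then 6.56, 6.03 and 5.76 (-0.87 ± 0.17, adjusted p = 0.00361), with -0.78 on its other probe set. LRP2, the endocytic receptor megalin, changed by -0.38 (adjusted p = 0.0216) and SLC13A1, a sulfate transporter, by -0.62 (adjusted p = 0.0442). Their calls were kept in 3 and 1 of the 6 fits that left out 1 array (highest adjusted p 0.0949 and 0.203), and SLC13A1 lost its call under quantile normalization and median centring too. With replicate number as a block 8 of 23 were lower, and the count was 2 without the 1 h array of replicate 2 or the 4 h array of replicate 3. HNF4A, a master regulator of this segment, changed by 0.08 (adjusted p = 0.869). Of 17 genes of other nephron segments limma called 0, and 1 was lower and 0 higher at an unadjusted p under 0.05. But 10 of these 17 had means under the lowest array median, so the absence of calls says little about those segments.

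Junction proteins fell in part. Of 12 claudins, which set paracellular permeability, 7 had means under the lowest array median. Of the 12, 1 was lower (8.33%, against 6.22% of all genes) and 0 higher. It was CLDN8, which read 6.33, 6.50 and 6.42 at 1 h and 5.66, 4.92 and 4.77 at 4 h (-1.30 ± 0.19, adjusted p = 0.000424), and had a mean of 6.09 at 8 h. Without the 4 h array of replicate 1, or without replicate 1 at any time, 2 claudins were lower. Of 14 other junction proteins 5 were lower (35.7%, against 6.22% of all genes) and 0 higher. PARD6B, a polarity protein, fell by 0.64 (adjusted p = 0.000582) and MARVELD3, a tight junction protein, by 0.65 (adjusted p = 0.00624). TJP3 (-0.54), MPP5 (-0.40) and CDH6 (-0.39) were called with adjusted p of 0.0389, 0.0206 and 0.0121 but kept their calls in 1, 2 and 4 of the fits that left out 1 array. The count was 2 without the 1 h or the 4 h array of replicate 3, and 3 without the 1 h array of replicate 1 or the 4 h array of replicate 2.

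Genes of the primary cilium's transport machinery fell in 8 of 14 (57.1%, against 6.22% of all genes) and rose in 0 (median -0.46). IFT74 read 7.17, 7.60 and 7.49 at 1 h and 6.88, 6.37 and 6.68 at 4 h (-0.78 ± 0.15, adjusted p = 0.00354), and IFT122 fell by 0.64 (adjusted p = 0.00419). BBS9, of the BBSome coat that moves cargo in cilia, read 7.70, 7.23 and 7.47 and then 6.96, 6.26 and 6.29 (-0.96 ± 0.19, adjusted p = 0.00332). IFT80 and IFT81, with -0.91 (adjusted p = 0.0367) and -0.85 (adjusted p = 0.021), kept their calls in 1 and 2 of the fits that left out 1 array (highest adjusted p 0.171 and 0.123). The list had 5 falls without the 1 h array of replicate 1 or 2 or the 4 h array of replicate 2 or 3, and 0 in the fit of the 6 arrays alone. Its median level was 7.21, 7.37 and 7.54 at 1 h and 7.10, 6.72 and 6.68 at 4 h, with replicate 1 the least changed.

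In matrix and adhesion genes, 6 of 55 collagens, laminins and integrins rose (10.9%, against 7.39% of all genes) and 2 fell (3.64%, against 6.22%), shares near those of all genes. ITGA3, the laminin-binding integrin alpha chain, read 9.25, 9.20 and 9.01 at 1 h and 10.35, 10.53 and 10.81 at 4 h (1.41 ± 0.17, adjusted p = 0.000115), with 1.31 on its other probe set. ITGB3 rose by 0.87 (adjusted p = 0.000414) and ITGA2, a collagen receptor, by 0.72 (adjusted p = 0.00837), with 0.80 and 0.68 on its other probe sets, though not without the 4 h array of replicate 3 (adjusted p = 0.0549). COL1A1 changed by 0.67 (adjusted p = 0.0231) on its brighter probe set and by 0.05 on the other, and lost its call when its probe sets were averaged and in 4 of the 6 fits that left out 1 array. COL1A1 is also a fibroblast marker, a list with 1 of 15 genes higher and 1 lower (6.67% each, against 7.39% and 6.22% of all genes). The falls, named after their values were seen, were ITGB6 (-0.50, adjusted p = 0.0125) and LAMB1 (-0.28, adjusted p = 0.0381). The rises numbered 2 without the 4 h array of replicate 3 and 3 without the 1 h array of replicate 1 or 2 or the 4 h array of replicate 2, and the falls 0 without the 1 h or the 4 h array of replicate 3 and 4 with replicate number as a block. Of 17 extracellular proteases and their inhibitors 2 were higher (11.8%, against 7.39% of all genes). The count was 0 without the 4 h array of replicate 3. ADAM17, which sheds membrane-bound ligands, rose by 0.39 (adjusted p = 0.0307, called in 2 of the 6 fits). PLAT, tissue plasminogen activator, read 10.12, 10.62 and 10.47 and then 10.80, 11.67 and 11.61 (0.95 ± 0.24, adjusted p = 0.0172), from a 0 h mean of 8.00, and was not called without the 1 h array of replicate 1 (adjusted p = 0.077), the 4 h array of replicate 2 (adjusted p = 0.0847) or that of replicate 3 (adjusted p = 0.094). PLAU, the urokinase type, had values of 7.67, 8.21 and 8.35 and then 7.16, 8.63 and 8.93 (0.16 ± 0.34, adjusted p = 0.872), lower in replicate 1 and higher in the others.

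Interferon response genes rose in 3 of 16 (18.8%, against 7.39% of all genes) and fell in 1 (6.25%, against 6.22%). GBP1, a guanylate-binding GTPase, read 6.50, 6.06 and 5.76 at 1 h and 7.42, 7.14 and 7.20 at 4 h (1.14 ± 0.26, adjusted p = 0.00875), and its adjusted p was 0.0502 without the 1 h array of replicate 3. MX2 rose by 0.60 (adjusted p = 0.0257) and GBP2 by 0.40 (adjusted p = 0.0311), while STAT2 fell by 0.37 (adjusted p = 0.0255), and each kept its call in 2 of those 6 fits. The count of rises was 0 without the 1 h array of replicate 3 and 1 without the 1 h array of replicate 2 or the 4 h array of replicate 1 or 3.

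**Figure D4:**
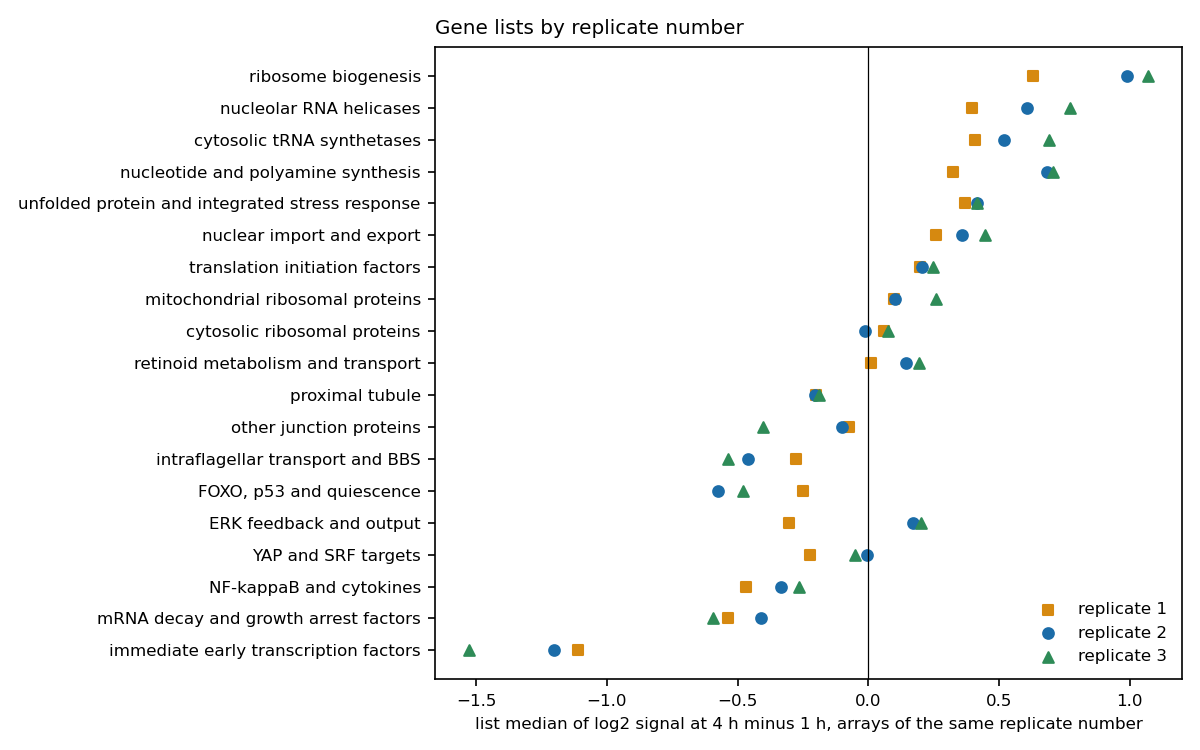
Median over the members of each of 19 gene lists (y axis) of the log2 signal at 4 h minus that at 1 h (x axis), within replicate 1 (orange squares), replicate 2 (blue circles) and replicate 3 (green triangles). Ribosome biogenesis is at 0.63, 0.99 and 1.07, with replicate 1 the lowest, while the ERK list is at -0.30 in replicate 1 and above 0 in the others.

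In the fit of all 18 arrays this step had more calls than each of the other 4 steps between neighbouring times. The step from 0 h to 0.5 h called 64 probe sets (0.232%), that from 0.5 h to 1 h 154 (0.559%), that from 4 h to 8 h 911 (3.31%) and that from 8 h to 12 h 0 (0.0%) by limma, where 1608 had an unadjusted p under 0.05, against 5882 in the step from 1 h to 4 h. The steps differ in length and neighbouring ones share arrays, so these counts only stand side by side. The numbers of the neighbouring steps depended on single arrays. The step from 4 h to 8 h had 2243 calls without the 4 h array of replicate 1, 200 without that of replicate 2 and 253 without that of replicate 3, 2178 with replicate number as a block and 1841 without replicate 1. From 0.5 h to 1 h there were 37, 46 and 79 without the 1 h arrays of replicates 2, 3 and 1, and 248 with the block.

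The difference from the step of 8 h to 12 h, which shares no array with it, was tested directly. It was called for 2125 probe sets (7.71%), or 3558 with replicate number as a block and 3313 without replicate 1, and 1404 without the 4 h array of replicate 3. SLC34A2 differed by 3.21, DKC1 by 2.53 and ATF3 by -3.25, values given without a test because these genes were named for their change in the step itself. CYP26A1, named whatever its change, differed by 0.02 (adjusted p = 0.979).

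The later arrays were compared with 0 h, to see how many calls of the step were also departures from 0 h. These counts do not measure how long the step lasted. A gene raised at 1 h that fell back to its 0 h level and stayed there is not counted. At 8 h against 0 h, a comparison without the arrays of the step, 891 probe sets were higher (3.23%) and 790 lower (2.87%). Of the 1564 rises of the step 518 were higher at 8 h, which is 33.1% of the rises and 58.1% of the probe sets higher at 8 h, and 1 was lower. Of the 1361 falls 405 were lower at 8 h (29.8% of the falls and 51.3% of those lower at 8 h), and 8 were higher. With replicate number as a block these were 921 and 816, without replicate 1 at any time 635 and 645, and the falls numbered 263 without the 4 h array of replicate 3.

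At 12 h, where 312 probe sets were higher than at 0 h (1.13%) and 416 lower (1.51%), the overlaps were smaller. Of the rises 136 were higher (8.7% of the rises, 43.6% of those higher at 12 h) and of the falls 204 were lower (15.0% and 49.0%). With the block they were 399 and 518, and the rises numbered 83 without the 1 h array of replicate 2. SLC34A2, HK2 and GABRP were among the genes still above 0 h at 12 h, by 1.84 (adjusted p = 8.02e-05), 1.15 (adjusted p = 0.00336) and 1.62 (adjusted p = 0.0206), and SLC34A1 was still lower, by -0.71 (adjusted p = 0.0151). IL4R and DKC1 differed from 0 h by 0.22 (adjusted p = 0.733) and 0.75 (adjusted p = 0.0646), and SESN3 and CLDN8 by -0.30 (adjusted p = 0.699) and -0.16 (adjusted p = 0.802).

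Of 902 genes with several probe sets 161 had at least 1 probe set called, 95 had all of them called the same way, and 0 had limma calls in both directions at the adjusted threshold.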

How the data were processed

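Signals came from 18 Affymetrix porcine arrays of LLC-PK1 cells at 6 times of ATRA with 3 arrays each. Per the labels' protocols, RNA was isolated with an RNeasy kit and labelled with the WT Plus kit. The authors deposited log2 values per probe set, made with Transcriptome Analysis Console 2.0.0.9, per the submitters' processing notes, while the summarization and normalization are not given in the sources used here. The array medians were nearly equal, so values were used as deposited.

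Differences were tested with limma 3.58.1 in R 4.3.3 (lmFit and eBayes, 1 mean per time, 12 residual and 3.34 prior degrees of freedom), with Benjamini-Hochberg adjustment over 27558 probe sets and a threshold of 0.05. The median SE of the step was 0.149, and with 3 arrays a time this spread sets what could be called. Of the probe sets 13323 had 1 gene symbol, 357 several and 13878 none in GEO's platform annotation, and 12925 matched a RefSeq gene by Entrez number. A gene was represented by its brightest probe set, and 1239 probe sets shared a profile with another.

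Same-numbered arrays of 1 h and 4 h deviated together (correlations of 0.451, 0.284 and 0.274 across probe sets, against -0.354 to 0.198 for other pairs). Deviations from the mean of each time sum to 0, so this contrast is partly built in and does not establish the pairs. The numbers, taken from the labels, were treated as pairs in a second fit with replicate number as a block. Other alternatives were a random block, quantile normalization, median centring, leaving out dim probe sets, a trended robust variance, fewer arrays, averaged probe sets, and each 1 h or 4 h array left out. The limma steps were tested on simulated data.

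Named genes were the 15 largest rises and 15 largest falls among calls with values that did not overlap, up to 5 called members of each list with the largest change, and 30 always named, 181 in all. Members and lists were chosen with earlier results of these data known.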

Additional observations from a re-analysis of the deposited data

How the results depend on the processing

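Of 181 named genes, 172 were called, 60 of them under every alternative, and 0 reversed. With replicate number as a block, 179 kept their side of the threshold, CXCL8 and MYC gained a call and 0 lost one. In a fit of the 6 arrays of the step alone 100 lost their call. Quantile normalization (3007 probe sets called), median centring (2845), a trended robust variance (3181) and shared profiles counted once (2877) stayed near the 2925 calls, and median centring moved the share of higher calls from 53.5% to 57.5%.

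The 6 arrays alone gave 585 calls, 356 higher and 229 lower (212 and 122 genes), and with replicate number as a block 718, 416 and 302 (239 and 157 genes). In the fit of all arrays the block gave 2155 falls (1224 genes), and leaving out replicate 1 gave 2152 (1242 genes). Leaving out single arrays of 1 h or 4 h gave 1607 to 3816 calls, 879 to 1837 higher and 728 to 1979 lower, or 539 to 1045 and 403 to 1161 genes. For the other steps the block, the random block and the fit without replicate 1 gave 2178, 1778 and 1841 calls from 4 h to 8 h, with 1484 without dim probe sets and 200 to 2243 without single arrays. From 0.5 h to 1 h the block gave 248, the random block 263 and single arrays 37 to 200. The random block gave 99 from 0 h to 0.5 h, where single arrays gave 55 to 81, and leaving out dim probe sets gave 3 from 8 h to 12 h. The difference between steps had 3558 calls with the block, 3212 with the random block, 3313 without replicate 1 and 1404 to 2918 without single arrays.

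Rises of the step also higher at 8 h than at 0 h numbered 921 with the block, 813 with the random block and 391 to 606 without single arrays. Falls also lower at 8 h than at 0 h numbered 816, 702 and 263 to 561, with 626 without dim probe sets and 645 without replicate 1. At 12 h the rises numbered 399, 295 and 83 to 162, with 257 without dim probe sets, and the falls 518, 411 and 137 to 291, with 366 without dim probe sets. Early rises that fell numbered 33 with shared profiles counted once and 42 to 59 in the other fits. The fits without replicate 1 and of 6 arrays with the block were chosen after seeing the data. The cause of these differences was not tested.

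Counts of lower genes also moved with the block, from 3 to 5 in the BMP, TGF-beta, Notch and WNT list, and from 1 to 2 in retinoid receptors, heat shock and interferon genes. Counts of higher genes moved from 1 to 2 in growth factor ligands and in the FOXO list. Mitochondrial ribosomal proteins and nuclear import genes each gained 1 fall from 0.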
